A study of Mus musculus with 6 samples.

Results

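Transcript levels of 9 genes of homologous recombination and Fanconi repair (Brca2, Rad54l, Rbbp8, Nbn, Mre11a, Rad50, Exo1, Fanca and Fanci) were examined in sorted mouse hematopoietic stem cells, which keep up their own number and supply every kind of blood cell. The genes were taken by symbol, and all 9 were present among the 11108 genes with values. Libraries labelled Mcph1-/- (n = 3) were set against libraries labelled WT (n = 3). Smart-seq2, which copies whole transcripts from very few cells, was run on 200 bone marrow cells per library, sorted as lineage-negative, Sca-1+, c-kit+, CD34- and CD150+; no treatment was recorded. The sources used here give no sex, age or strain, and do not say if replicates were separate mice, so the spread behind each p-value may be technical.

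Homologous recombination repairs DNA breaks by copying an intact sister chromatid, and it is used mainly while a cell replicates its DNA or waits to divide. Nucleases first trim the break to single-stranded DNA, and BRCA2 and the motor protein RAD54 then act in the steps by which that DNA finds and invades the matching sequence. The Fanconi proteins detect crosslinks between DNA strands and open them so that the same machinery can finish the repair, and inherited loss of this pathway is known for bone marrow failure. Microcephalin, the product of Mcph1, keeps chromosomes from condensing too early, acts in the response to DNA damage and is reported to bind BRCA2.

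The libraries held 9464810 to 10455908 reads on the listed genes in Mcph1-/- and 8102605 to 8655123 in WT. Values are normalised read counts, that is, reads divided by 1 size factor per library. Of the 17 stem cell marker genes examined, all had values, and Slamf1, which encodes the sorting marker CD150, was at 65.7, 395.4 and 0.893 in Mcph1-/- and at 0, 223.6 and 497.0 in WT. The deleted gene itself was read in every library, at 427.8, 37.7 and 233.9 in Mcph1-/- and 160.5, 341.0 and 34.4 in WT, so Mcph1 totals did not separate the genotypes (limma log2 fold change 0.33, SE 1.25, adjusted p = 0.958). Reads from outside a deleted exon would still count here, and the sources do not say what was removed, so these totals are no check of the labels.

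None of the 9 genes passed the test between genotypes. The test was limma-trend on log2(value + 1) over all 10846 genes with a mean of at least 10, with Benjamini-Hochberg adjustment at 0.05, and it called 4 genes, 0.0369% of those tested. Adjusted p-values of the 9 genes ran from 0.646 to 0.955, and 1 gene, Mre11a, had an unadjusted p under 0.05, against 7.71% of all tested genes. By edgeR's quasi-likelihood test 0 of the 9 genes passed (0.0184% of all tested genes) and 0 had an unadjusted p under 0.05 (5.47%). By DESeq2, which gave 4 of the 9 an adjusted p, 0 passed (2.16%) and 1, again Mre11a, had an unadjusted p under 0.05 (10.9%). Log2 fold changes, taken as Mcph1-/- over WT, were above 0 for 8 of the 9 genes, where 53.8% of all tested genes were above 0, and the median was 0.96 over the 9 genes and 0.08 over all tested genes. Brca2 and Mre11a were higher in every Mcph1-/- library than in any WT library, which 7.4% of all tested genes also were, and none of the 9 was lower without overlap, against 6.8% of tested genes. In whole-library RNA, more cells carrying a transcript and more transcript per cell cannot be told apart.

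**Figure D1:**
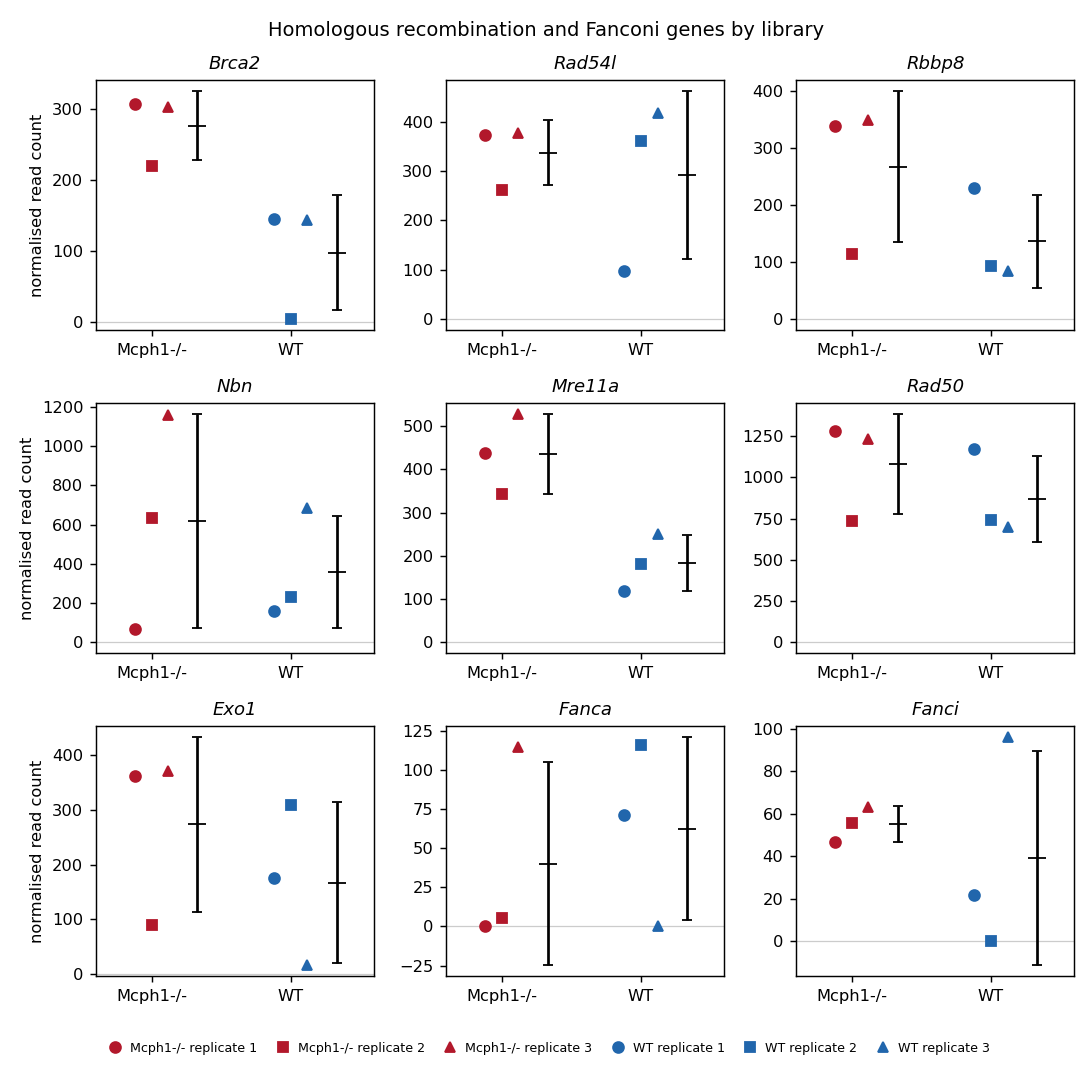
Normalised read count of each of the 9 genes in each library, with Mcph1-/- left and WT right in every panel, points for single libraries, and a black bar for the mean with its SD (n = 3). Brca2 and Mre11a are the 2 genes whose genotypes do not overlap, while Nbn, Exo1 and Fanca spread widely within both genotypes.

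Brca2, a tumour suppressor gene whose product acts after the ends are trimmed, had the largest log2 fold change of the 9 genes. Its normalised read count was 306.5, 219.8 and 301.8 in Mcph1-/- replicates 1 to 3, and 145.3, 4.12 and 143.7 in WT replicates 1 to 3. The Mcph1-/- libraries lay close together and above all WT libraries, and WT replicate 2, with 4 reads, stood far below the other WT libraries. The mean was 276 ± 48.7 in Mcph1-/- and 97.7 ± 81.1 in WT (SD, n = 3), a ratio of means of 2.82. The log2 fold change was 2.52 (SE 1.42, 95% interval -0.74 to 5.79; adjusted p = 0.668 by limma), and it was 0.91 without WT replicate 2, 1.496 by DESeq2 and 1.53 by edgeR. Brca2 (ENSMUSG00000041147) maps to chromosome 5, bases 150522630 to 150570329 (plus strand), in mm10, and its exons overlap those of Gm42529.

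The promoters of Brca2 and Mre11a are shown because these were the genes whose genotypes did not overlap. Each line gives the 250 bases upstream of the RefSeq start on the plus strand (GRCm38.p6, the assembly that mm10 names), chr5:150522371-150522620 for Brca2 and chr9:14784404-14784653 for Mre11a, with matches to the motifs searched in capitals.
Brca2: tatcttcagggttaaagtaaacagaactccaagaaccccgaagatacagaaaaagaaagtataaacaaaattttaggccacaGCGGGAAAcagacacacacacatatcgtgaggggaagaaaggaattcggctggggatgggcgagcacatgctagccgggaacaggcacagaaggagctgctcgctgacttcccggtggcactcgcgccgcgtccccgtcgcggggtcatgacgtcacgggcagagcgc
Mre11a: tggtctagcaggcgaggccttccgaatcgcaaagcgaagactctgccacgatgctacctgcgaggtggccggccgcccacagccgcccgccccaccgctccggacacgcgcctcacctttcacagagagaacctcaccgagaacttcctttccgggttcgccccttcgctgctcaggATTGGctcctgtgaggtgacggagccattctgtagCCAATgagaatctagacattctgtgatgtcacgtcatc
The letters searched on both strands were TTTNNCGC for E2F factors, TTTGAA for the cell cycle homology region (CHR), and CCAAT, and no match of 1 motif overlapped one of another in these windows. In the Brca2 window the capitals mark 1 TTTNNCGC match on the minus strand, whose far end lies 168 bases before the start. In the Mre11a window they mark CCAAT on the minus strand and on the plus strand, 73 and 38 bases before the start. A RefSeq promoter was at hand for 5 of the 9 genes (Brca2, Rad54l, Mre11a, Fanca and Fanci). Of these 5, TTTNNCGC was in 1 (Brca2), CCAAT in 3 (Rad54l, Mre11a and Fanca) and TTTGAA in 0, where 4.28%, 33.8% and 16% of 32817 RefSeq promoter windows of this length held them. A match is a run of letters and not a measured site.

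Rad54l, the motor protein of strand invasion, was close between genotypes. It stood at 374.0, 260.9 and 377.7 in Mcph1-/- and at 97.6, 360.6 and 417.1 in WT. The Mcph1-/- libraries lay inside the WT range, and WT replicate 1 was the low library. The mean was 338 ± 66.4 in Mcph1-/- and 292 ± 170 in WT (SD, n = 3), and the log2 fold change was 0.44 (SE 0.68; adjusted p = 0.874 by limma); it was -0.22 without WT replicate 1. Rad54l (ENSMUSG00000028702) maps to chromosome 4, bases 116094264 to 116123690 (minus strand), and its exons overlap those of Lrrc41.

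MRE11, RAD50 and NBN form the MRN complex, which binds broken DNA ends, holds them together and activates the kinase ATM. Mre11a, the nuclease of the complex, had normalised read counts of 437.9, 342.9 and 527.7 in Mcph1-/- and 118.2, 181.3 and 250.03 in WT. The lowest Mcph1-/- library was above the highest WT library. The mean was 436 ± 92.4 in Mcph1-/- and 183 ± 65.9 in WT (SD, n = 3), 2.38 times as high, and the log2 fold change was 1.29 (SE 0.56, 95% interval 0.01 to 2.57; adjusted p = 0.646 by limma). It ranged from 1.01 to 1.55 when 1 library was left out, and DESeq2 gave 1.25 (adjusted p = 0.159, in a range of 0.159 to 0.962 over all alternatives). Mre11a (ENSMUSG00000031928) maps to chromosome 9, bases 14784654 to 14837123 (plus strand), and its exons overlap those of Ankrd49. As the strand setting of the counting is not given, reads of such overlapping genes cannot be told apart.

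Rad50, the ATPase that tethers the ends, was read most evenly of the 9 genes. It stood at 1281, 734.2 and 1232 in Mcph1-/- and at 1170, 741.8 and 699.5 in WT. The genotypes covered nearly the same range, with 1 Mcph1-/- library among the lower values and 1 WT library among the higher. The mean was 1082 ± 303 in Mcph1-/- and 870 ± 260 in WT (SD, n = 3), and the log2 fold change was 0.31 (SE 0.34, 95% interval -0.48 to 1.10; adjusted p = 0.808 by limma). With 1 library left out it ran from 0.17 (without Mcph1-/- replicate 1) to 0.57 (without Mcph1-/- replicate 2). Rad50 (ENSMUSG00000020380) maps to chromosome 11, bases 53649519 to 53707319 (minus strand).

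Nbn, the subunit that recruits ATM, varied within both genotypes. It had 64.8, 632.5 and 1158 in Mcph1-/- and 157.2, 230.8 and 687.3 in WT. Mcph1-/- replicate 1 was the lowest and Mcph1-/- replicate 3 the highest of all 6 libraries, 17.9-fold apart. The mean was 618 ± 547 in Mcph1-/- and 358 ± 287 in WT (SD, n = 3), and the log2 fold change of 0.31 (SE 1.08; adjusted p = 0.955 by limma) did not exceed the spread between replicates. Its value was -0.09 without Mcph1-/- replicate 2, -0.52 without Mcph1-/- replicate 3 and -0.13 without WT replicate 1. Nbn (ENSMUSG00000028224) maps to chromosome 4, bases 15957925 to 15992589 (plus strand), with no exon shared with another annotated gene.

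Set side by side per kilobase of exon, the transcripts of the MRN subunits did not keep a fixed proportion. The level of Mre11a per kilobase was 0.310, 0.424 and 0.388 of that of Rad50 in Mcph1-/- and 0.0916, 0.222 and 0.324 of it in WT. These ratios overlapped between genotypes, and Mre11a stayed below Rad50 in all 6 libraries. The level of Nbn per kilobase was 0.107, 1.83 and 1.99 of that of Rad50 in Mcph1-/- and 0.285, 0.660 and 2.09 of it in WT. Nbn was thus below Rad50 in 3 libraries and above it in 3, with both kinds found in each genotype.

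**Figure D2:**
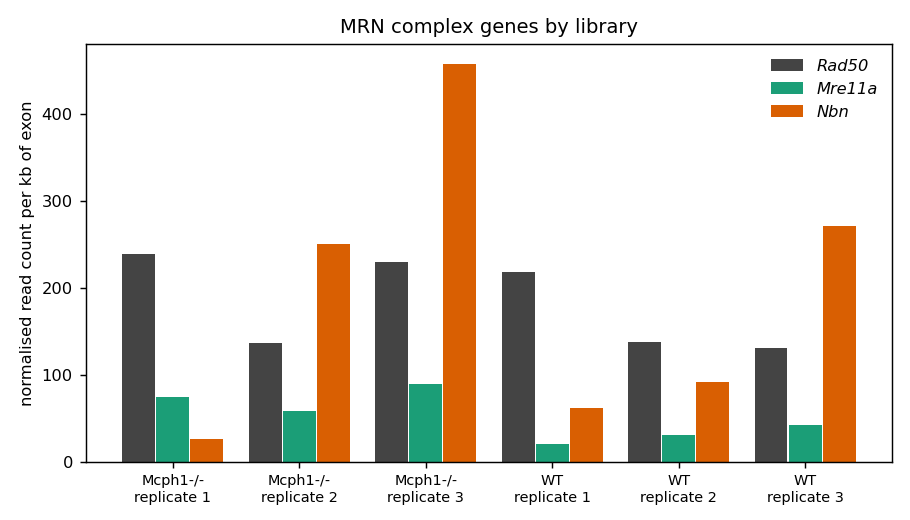
Normalised read count per kilobase of union exon length for the 3 MRN genes in each library, with the Mcph1-/- libraries left of the WT libraries and 1 bar per gene. Mre11a is below Rad50 in every library, whereas Nbn runs from 25.6 in Mcph1-/- replicate 1 to 457 in Mcph1-/- replicate 3.

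Rbbp8 and Exo1 carry resection forward: CtIP, the product of Rbbp8, stimulates the MRE11 nuclease, and EXO1 is the exonuclease that extends the single-stranded stretch. Rbbp8 stood at 338.4, 114.0 and 348.2 in Mcph1-/- and at 229.9, 93.8 and 84.0 in WT. Mcph1-/- replicates 1 and 3 were above all WT libraries, and Mcph1-/- replicate 2 lay within the WT range. The mean was 267 ± 132 in Mcph1-/- and 136 ± 81.6 in WT (SD, n = 3), and the log2 fold change was 0.96 (SE 0.83; adjusted p = 0.757 by limma), or 0.68 (without Mcph1-/- replicate 3) to 1.49 (without Mcph1-/- replicate 2) with 1 library left out. Rbbp8 (ENSMUSG00000041238) maps to chromosome 18, bases 11633276 to 11745221 (plus strand), and its exons overlap those of AC090479.2.

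Exo1 was lowest in the same Mcph1-/- and WT libraries as Rbbp8, replicate 2 of Mcph1-/- and replicate 3 of WT. It had 361.2, 88.6 and 370.5 in Mcph1-/- and 175.7, 309.1 and 16.2 in WT. The genotypes overlapped, and WT replicate 3 held 16 reads. The mean was 273 ± 160 in Mcph1-/- and 167 ± 147 in WT (SD, n = 3). The log2 fold change was 1.23 (SE 1.25; adjusted p = 0.791 by limma) and -0.03 without WT replicate 3. Exo1 (ENSMUSG00000039748) maps to chromosome 1, bases 175880581 to 175913489 (plus strand).

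The Fanconi genes Fanca and Fanci had the lowest levels of the 9 and were the ones with a library at 0 reads. Fanca encodes a subunit of the core complex that attaches ubiquitin to FANCD2 and FANCI, and FANCI is the partner of FANCD2 in the clamp that closes on damaged DNA. Fanca had 0, 5.74 and 115.2 in Mcph1-/- and 71.6, 116.4 and 0 in WT. It was high in 1 Mcph1-/- library and in a pair of WT libraries, and it was at 0 reads in Mcph1-/- replicate 1 and WT replicate 3, which allows a normalised read count of up to 2.74 and 3.04 there (3 reads, counting error only). The mean was 40.3 ± 64.9 in Mcph1-/- and 62.7 ± 58.7 in WT (SD, n = 3). Its log2 fold change, the 1 below 0 among the 9 genes, was -1.15 (SE 2.52, 95% interval -6.93 to 4.64; adjusted p = 0.918 by limma). It was 0.45 without Mcph1-/- replicate 1 and 0.11 without WT replicate 2. Fanca (ENSMUSG00000032815) maps to chromosome 8, bases 123268300 to 123318576 (minus strand), and its exons overlap those of Zfp276.

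Fanci was low but even in Mcph1-/-, at 46.5, 55.8 and 63.4, and uneven in WT, at 21.7, 0 and 96.2. All Mcph1-/- libraries lay inside the WT range. The mean was 55.2 ± 8.45 in Mcph1-/- and 39.3 ± 50.4 in WT (SD, n = 3). The log2 fold change was 2.10 (SE 1.94; adjusted p = 0.770 by limma), and it was 0.25 without WT replicate 2, the library at 0 reads, where up to 3.09 is allowed. The pseudocount also moved it, to 0.80 with 16 in place of 1, and DESeq2 and edgeR gave 0.49 and 0.53. Summed over the libraries of a genotype, Fanci had 190 reads in Mcph1-/- and 115 in WT, a depth-adjusted ratio of 1.42 (exact 95% interval 1.12 to 1.80, counting error only). Fanci (ENSMUSG00000039187) maps to chromosome 7, bases 79391929 to 79450264 (plus strand), and its exons overlap those of Polg.

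**Figure D3:**
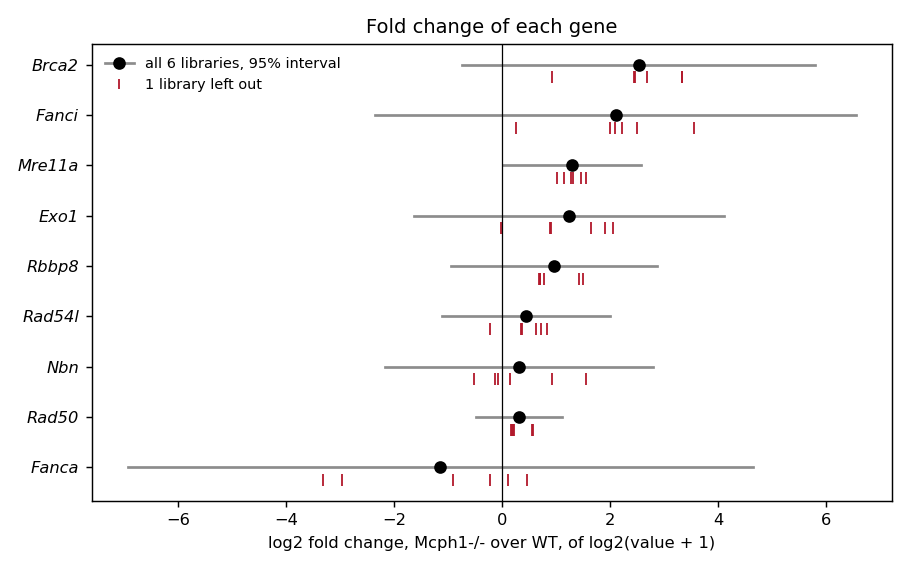
Log2 fold change (Mcph1-/- over WT, difference of mean log2(value + 1)) of each of the 9 genes, with black points for the fit on all 6 libraries, grey lines for its 95% interval, and red ticks for the value when 1 library is left out. The interval of Mre11a starts just above 0, at 0.01, before adjustment, and the intervals of the other 8 genes cross 0.

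Levels of the 9 genes were compared per kilobase of union exon length. The mean over all 6 libraries ran in the order Nbn (193), Rad50 (182), Mre11a (52.2), Rad54l (40.8), Exo1 (26.1), Rbbp8 (16.1), Brca2 (13.7), Fanci (8.18) and Fanca (5.88 normalised read counts per kilobase). Of these neighbours, only Rad50 and Mre11a were apart in all libraries of both genotypes. Mre11a and Rad54l, and likewise Brca2 and Fanci, were apart within Mcph1-/- but overlapped within WT, and the other 5 neighbouring pairs overlapped within both. Nbn and Rad50 stood above 71.6% and 70.5% of the tested genes with an exon length, Mre11a above 42.6%, and Brca2, Fanci and Fanca above 11.7%, 5.39% and 2.8%. With the longest transcript in place of the union of exons, means in Mcph1-/- were 77.1 for Mre11a and 73.8 for Rad54l. Rbbp8, at 48.8, came before Exo1, at 35.1. In WT, means by this length were 168.9 for Rad50, 141.5 for Nbn, 63.8 for Rad54l and 32.4 for Mre11a. Next came Rbbp8 (24.8), Exo1 (21.4), Fanca (13.97), Brca2 (9.11) and Fanci (8.46). The order thus changed with the length used and with the genotype.

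The spread between libraries differed among the 9 genes. The SD of log2 values within genotypes was 0.43 for Rad50 and 0.44 for Mre11a, below the median of all tested genes (0.88), as it was for Rad54l (0.84) and Rbbp8 (0.85). It was above that median for Nbn (1.73), Exo1 (1.77), Brca2 (1.98), Fanci (2.39) and Fanca (3.62). Mcph1-/- replicate 2 was the lowest of the Mcph1-/- libraries for 6 of the 9 genes (32% of tested genes) and Mcph1-/- replicate 3 the highest for 7 (33% of tested genes). In WT no library was the lowest for more than 4 genes or the highest for more than 4. Added up, the 9 genes had normalised read counts of 3210, 2454 and 4494 in Mcph1-/- and 2187, 2038 and 2394 in WT, of which Rad50 and Nbn together made 41.9% to 55.7% in Mcph1-/- and 47.7% to 60.7% in WT.

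The genes with the most similar pattern over the 6 libraries were found by the root mean square difference of log2(value + 1) after each gene was centred on its own mean, among 9475 other genes. Among the 9 genes themselves, Brca2 and Fanci were each other's nearest (0.72), and both were lowest in WT replicate 2. Rbbp8 and Rad50 were also each other's nearest among the 9 (0.48), as were Mre11a and Rad54l (0.58). In each case many other genes were nearer: Fanci ranked 43rd from Brca2. The nearest genes of all were Spout1 to Brca2 (0.27), Pgrmc1 to Rad54l (0.16), Med9 to Rbbp8 (0.21), Alg1 to Nbn (0.45) and Med6 to Mre11a (0.17). They were Chd9 to Rad50 (0.11), Tlk2 to Exo1 (0.36), Dcun1d4 to Fanca (0.34) and Hes5 to Fanci (0.38).

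The rest of the pathway was read from a list of 81 further symbols, older names included, of which 57 had values and all 57 were tested. None of the 57 passed by limma. In Mcph1-/-, 40 were higher and 17 lower, where 53.8% of all tested genes were higher. The median log2 fold change was 0.39, against 0.08 for all tested genes. Groups did not overlap for 5 genes that were higher and 2 that were lower, beside 7.4% and 6.8% of all tested genes. By limma, 6 of the 57 had an unadjusted p under 0.05, beside 7.71% of all tested genes. The 2 genes that were lower without overlap were Zswim7 and Mad2l2, neither with an unadjusted p under 0.05 by limma. Mad2l2, a translesion polymerase subunit, was named after its values were seen. By edgeR 0 passed, and by DESeq2 0 passed among those given an adjusted p. BRCA1, its partners BARD1 and PALB2, and FANCD2 are among those whose genes have no values here.

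On the higher side, the smallest p-values belonged to Rad51ap1, Eme1, Recql and H2ax. Rad51ap1, which takes part in strand invasion, stood at 289.2, 601.3 and 493.7 in Mcph1-/- and at 0, 0 and 86.0 in WT. Its genotypes did not overlap, and the log2 fold change was 6.64 (SE 1.97; adjusted p = 0.599 by limma), or 3.95 with a pseudocount of 16. Eme1, a subunit of a nuclease that cuts joined DNA molecules, had 98.5, 12.3 and 129.5 in Mcph1-/- and 0, 3.09 and 1.01 in WT, where its reads added up to 4. The log2 fold change of Eme1 was 4.79 (SE 1.66; adjusted p = 0.626 by limma), or 2.17 with a pseudocount of 16. Recql, a DNA helicase, had 377.7, 173.9 and 220.5 in Mcph1-/- and 0, 69.0 and 7.09 in WT, with a log2 fold change of 4.89 (SE 1.77; adjusted p = 0.626 by limma). For these 3 genes all Mcph1-/- libraries were above all WT libraries, and DESeq2 gave no adjusted p for them. H2ax, the histone variant that is phosphorylated around DNA breaks, had 4253, 3306 and 2443 in Mcph1-/- and 2925, 990.1 and 1595 in WT. Its genotypes overlapped, as WT replicate 1 was above Mcph1-/- replicate 3, and the log2 fold change was 0.96 (SE 0.39; adjusted p = 0.639 by limma), or 0.59 without WT replicate 2. The exons of Eme1 overlap those of Lrrc59 and Mrpl27, those of Recql overlap Pyroxd1, and those of H2ax overlap Gm44335.

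On the lower side, the smallest p-values belonged to Zswim7, Mus81, Sem1 and Rev1, and none of these passed either. Zswim7, a subunit of the Shu complex of homologous recombination, had 185.2, 287.1 and 226.8 in Mcph1-/- and 398.0, 357.5 and 673.2 in WT, without overlap (log2 fold change -0.99, SE 0.50; limma adjusted p = 0.662). Mus81, the nuclease that pairs with EME1, had 322.9, 0 and 99.996 in Mcph1-/- and 276.5, 528.5 and 273.3 in WT, and its genotypes overlapped. Its log2 fold change was -3.42 (SE 2.01; adjusted p = 0.679 by limma), with Mcph1-/- replicate 2 at 0 reads, and it was -0.92 without that library and -1.32 by edgeR. Sem1, a small acidic partner of BRCA2 that is also a proteasome subunit, averaged 2690 ± 140 in Mcph1-/- and 3297 ± 610 in WT (SD, n = 3), and the log2 fold change was -0.28 (SE 0.19; adjusted p = 0.711 by limma), or -0.14 without WT replicate 1. Rev1, a translesion polymerase, averaged 150 ± 77.3 in Mcph1-/- and 316 ± 143 in WT, a log2 fold change of -1.09 (SE 0.77; adjusted p = 0.720 by limma), or -0.64 without Mcph1-/- replicate 2. The exons of Mus81 overlap those of Efemp2, and those of Rev1 overlap Eif5b.

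**Figure D4:**
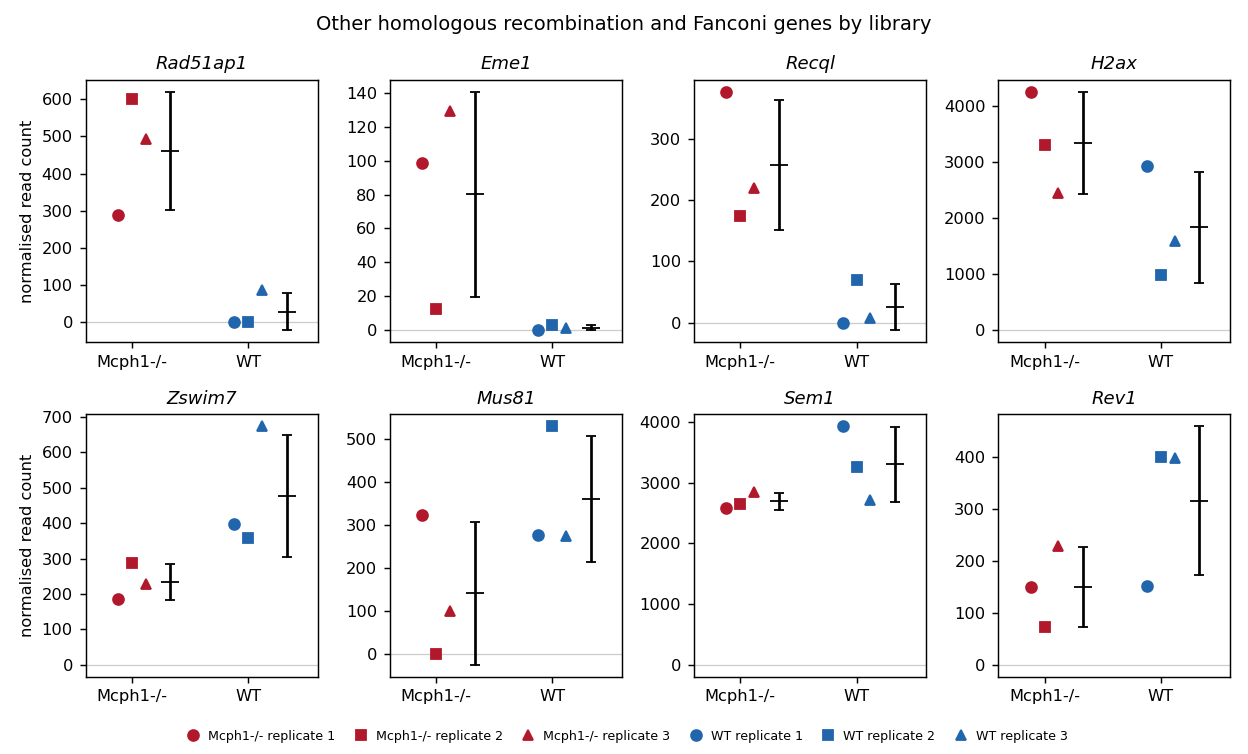
Normalised read count by library of 4 further pathway genes per direction, by smallest p, higher ones in the upper row and lower ones in the lower row, with Mcph1-/- left and WT right, points for libraries and a black bar for the mean with its SD (n = 3). Rad51ap1, Eme1 and Recql are near 0 in most WT libraries, while H2ax, Mus81, Sem1 and Rev1 overlap between genotypes.

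Markers of dividing cells and of other blood cells were read in the same libraries. Of 29 tested genes that mark DNA replication and the phase before division, 26 were higher in Mcph1-/-, where 53.8% of all tested genes were. Without overlap 10 were higher and none was lower, beside 7.4% and 6.8% of all tested genes. None of the 29 passed by limma. Their summed normalised read count was 22620 to 25426 in Mcph1-/- and 10839 to 12577 in WT. Ccna2, cyclin A2, averaged 885 ± 432 in Mcph1-/- and 208 ± 39.3 in WT (SD, n = 3; log2 fold change 1.98, SE 0.49; limma adjusted p = 0.540), and its exons overlap those of Exosc9. Log2 fold changes were 1.63 (SE 1.22) for Mki67, 0.92 (SE 0.49) for Top2a and 0.13 (SE 0.54) for Pcna. Without WT replicate 1 they were 0.23 for Mki67 and 0.52 for Top2a. The part of these genes in the levels of the 9 repair genes was not tested.

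Of 14 neutrophil markers 7 were tested, and they summed to 3287 to 18724 in Mcph1-/- and 58564 to 67847 in WT. S100a8 was lower in Mcph1-/- (log2 fold change -6.66, SE 0.34, limma adjusted p = 0.000386). Of the 7 markers, 4 were lower in Mcph1-/- without overlap (6.8% of all tested genes). For 1, Mpo, the log2 fold change was above 0 (1.45, SE 3.61), while its mean was 1637 in Mcph1-/- and 1987 in WT. Mpo, Elane and Prtn3 overlapped between genotypes. They stood at 4856, 8095 and 5459 in Mcph1-/- replicate 3, the library with the highest Mcph1-/- sum. In WT replicate 1 they stood at 5959, 3614 and 7287. Of 17 erythroid markers 11 were tested, summing to 31164 to 39261 in Mcph1-/- and 4725 to 22482 in WT, with Car1 higher in Mcph1-/- (3.53, SE 0.35; limma adjusted p = 0.024). Car1, a carbonic anhydrase of early red cells, made up most of the Mcph1-/- sums, at 30038, 23716 and 31845 in Mcph1-/- and 1628, 1977 and 4566 in WT. The erythroid markers did not go 1 way: 4 were higher and 3 lower in Mcph1-/- without overlap, beside 7.4% and 6.8% of all tested genes. The lower ones were the globin genes Hba-a1 (log2 fold change -3.40, SE 1.21), Hba-a2 (-3.27, SE 1.79) and Hbb-bs (-5.03, SE 2.10), none past the threshold. In WT replicates 1 to 3, Hba-a1 stood at 581.3, 251.4 and 8516 and Hba-a2 at 55.3, 39.1 and 1748. Hbb-bs stood at 65.1, 24.7 and 2257, so WT replicate 3 was far above the other WT libraries for each. Their means in Mcph1-/- were 114, 19.7 and 6.31. Reads of such near-identical globin genes may be split between copies. The 17 stem cell markers summed to 23021 to 25005 in Mcph1-/- and 30271 to 31330 in WT, with log2 fold changes of -0.48 (SE 0.38) for Kit (-0.12 without WT replicate 3) and 0.26 (SE 0.30) for Ly6a, neither past the threshold. Megakaryocyte markers (6 of 9 tested, 1479 to 2164 in Mcph1-/- and 1977 to 5244 in WT, Pf4 at a log2 fold change of -1.20, SE 0.92, and at -0.22 without Mcph1-/- replicate 1 and -0.48 without WT replicate 1) and B cell markers (6 of 9, 536 to 6095 in Mcph1-/- and 879 to 5155 in WT) overlapped between genotypes. T and NK cell markers did too (3 of 10, 912 to 2166.4 in Mcph1-/- and 714 to 2680 in WT). Monocyte and macrophage markers (3 of 8) summed to 4436 to 4792 in Mcph1-/- and 7872 to 12700 in WT. Lyz2 made up most of these sums, at 4400, 4628 and 4430 in Mcph1-/- and 10866, 7454 and 12241 in WT. Ly6c2 and Cd68, the others tested, overlapped between genotypes. Cd3e and Csf1r have no values here. The part of these cell types in the levels of the repair genes was not tested.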

How the data were processed

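RNA-seq was measured in 6 libraries of 200 sorted stem cells each, with paired 150-bp reads. Per the submitters' processing notes, the tools were Trim Galore 0.6.6, featureCounts, HISAT2 and DESeq2 and the build mm10, in no stated order. Annotation release and strand setting are not stated. The deposited values are a signal, each gene's reads scaled by the authors with 1 factor for each library: 100% were whole multiples of 1 read's value (tolerance 0.001 reads), so whole reads were recovered and gave totals of 8102605 to 10455908. Every listed gene has reads in at least 4 libraries, so a gene read in 1 genotype only would not be listed. No libraries of a genotype agreed within sampling noise. Genes without a symbol (2.22% to 2.38% of reads) stayed in the tests.

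Genes with a mean of at least 10 were tested with limma 3.58.1 (trend) on log2(value + 1). The added 1 understates changes of low genes, while a library near 0 enlarges a log2 fold change beyond the ratio of means. Alternatives used edgeR 4.0.16 and DESeq2 1.42.0 on the recovered reads (R 4.3.3), limma-voom, TMM scaling, other pseudocounts and filters, a replicate block, and each library left out. The limma-trend and edgeR tests were also run on reads simulated from these libraries, and no outcome of that run is given here. Intervals on read sums are exact binomial and, like the floor of 3 reads at 0, cover counting error only, as PCR copies of a molecule were not told apart. Positions and exon lengths come from GENCODE vM21 (mm10), matched by identifier for 96.2% of listed genes; promoters come from RefSeq (GRCm38.p6), matched by symbol for 5 of the 9 genes.

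The 9 genes and all lists were chosen with earlier results of these data known. Some genes of these lists are not reported here and stay out of the lists' counts. Named beside the 9 were 4 further pathway genes per direction, by smallest p, the nearest gene in pattern to each of the 9 (predicted models left out), and marker genes listed by name. The genotypes share replicate numbers 1 to 3, but libraries with the same number did not deviate together, so the numbers were not used as pairs.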

Additional observations from a re-analysis of the deposited data

How the results depend on the processing

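Under the 15 alternatives, 0 of the 9 genes passed, and their median log2 fold change stayed between 0.68 and 1.45, within the replicate SD of 0.56 of its value of 0.96. Fold changes of Brca2, Mre11a, Rad50, Rbbp8 and Fanci, and of the 8 named further pathway genes, kept their direction in every alternative run; with a mean filter of 50, Fanci and Eme1 were not tested. Leaving out 1 library gave log2 fold changes of both signs for Nbn (-0.52 to 1.55; -0.09 without Mcph1-/- replicate 2 and -0.13 without WT replicate 1), Rad54l (-0.22 to 0.82), Exo1 (-0.03 to 2.06) and Fanca (-3.32 to 0.45; 0.11 without WT replicate 2). It did so too for Mcph1 (-0.58 to 1.34; -0.39 without Mcph1-/- replicate 1), Pcna (-0.28 to 0.61; -0.10 and -0.04 without Mcph1-/- replicates 2 and 3), Ly6a (-0.016 to 0.43) and Slamf1 (-3.18 to 1.75; 0.72 and 1.30 without WT replicates 2 and 3). The cause was not tested.

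The number of genes called over the whole table was 4, and it was 2 by edgeR, 1 by limma-voom, 234 by DESeq2 and 1 to 4 with 1 library left out. Of the 57 further pathway genes 0 passed in any alternative; their median of 0.39 ranged from 0.14 (without WT replicate 3) to 0.57 with 1 library left out. Car1 did not pass by edgeR (3.42) or in 5 of the 6 fits with 1 library left out, S100a8 did not by limma-voom (-6.63), and Ccna2 passed by DESeq2 (2.09). Deviations of libraries with the same number correlated at -0.014, 0.018 and -0.030, and the replicate block gave 3 calls over all genes and 0 among the 9, with medians of 0.96 for the 9 and 0.39 for the 57. Genes of few reads are limited by depth: Fanca had 136 reads in Mcph1-/- and 179 in WT.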
